A study of Rattus norvegicus with 12 samples.

Results

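The 10 genes described here belong to red blood cells and their precursors: the globin genes Hbb and Hba-a2, the globin chaperone Ahsp, the heme synthesis enzyme Alas2, the membrane proteins Slc4a1, Epb42 and Rhag, the transcription factors Klf1 and Gata1, and the transferrin receptor Tfrc. They were measured by 14 probe sets of 31042 on the array, found by gene symbol in the platform annotation, and each gene was read from its brightest probe set over all arrays. Hbb, Alas2, Ahsp, Epb42, Klf1, Gata1 and Rhag had a probe set annotated to them alone, Slc4a1 and Tfrc had 2 each, and the 3 probe sets of Hba-a2 were annotated to both Hba-a2 and Hba-a1, so these alpha-globin genes cannot be told apart here. No member lay at the floor of 1 to which low signals were raised.

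The tissue was hematoma of female Sprague-Dawley rats, taken on day 3 from a femur osteotomy whose gap was 1.5 mm wide. The 4 groups were old rats with semi-rigid fixation (OSR), old rats with rigid fixation (OR), young rats with semi-rigid fixation (YSR) and young rats with rigid fixation (YR). Old rats were 52 weeks and young rats 12 weeks of age, and the fixator stood 15 mm from the bone for semi-rigid and 7.5 mm for rigid fixation. The RNA came from 9 animals in each group and was pooled from 3 animals per array, giving 3 arrays per group and 12 in all, so that no array shows a single animal and the number of arrays limits the precision. Array medians of signal lay between 126.9 and 167.5. The Gapdh ratio, the log2 signal of the control at the 3' end of Gapdh minus that at the 5' end, reports on RNA integrity. It was 6.69 on YSR array 1 and 2.95 on OR array 1. On the YR arrays it was 1.02, 1.59 and 1.38, against 0.33 to 0.49 on the remaining arrays. Comparisons with YR therefore also differ in this ratio, whose part was not tested.

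Red cells arise in bone marrow, and in adult rodents also in spleen, from progenitors that switch on GATA1 and KLF1. These factors act at the genes for globins, heme enzymes and the red cell membrane. Precursors take up iron through the transferrin receptor and make heme, then lose the nucleus and leave as reticulocytes, which still hold globin and Alas2 RNA and lose it as they mature. Blood that clots in a fracture gap therefore carries reticulocyte RNA, whereas RNA of Gata1 and Klf1 belongs to nucleated precursors. That of Gata1 also belongs to related lineages such as megakaryocytes. The paper describes the first hematoma as arising both from bleeding and from marrow that enters the gap, so the tissue need not be blood alone. Whether the genes of these stages moved together over the arrays was the question put to the data.

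The bases before the start of 4 of these genes are shown because the globin genes on one side and Klf1 and Rhag on the other took different courses over the 12 arrays. The sequences are RefSeq promoters of assembly GRCr8, cut to the 250 bases before the start and written 5' to 3' along the gene. Capitals mark matches to a GATA motif, which is AGATAA, or the same letters with T first, with G last or with both, or to a CACCC-type motif of KLF factors (CCNCNCCC). Both motifs were read on both strands, so that a match on the opposite strand stands as its reverse complement, and in these windows no match of one overlapped a match of the other.
Hbb (chr1:167663722-167663971, minus strand): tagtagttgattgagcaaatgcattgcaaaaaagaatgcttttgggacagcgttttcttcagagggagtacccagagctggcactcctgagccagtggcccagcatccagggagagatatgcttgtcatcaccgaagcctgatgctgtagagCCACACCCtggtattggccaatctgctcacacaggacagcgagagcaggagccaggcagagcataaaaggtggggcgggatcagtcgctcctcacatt
Hba-a2 (chr10:15829139-15829388, minus strand): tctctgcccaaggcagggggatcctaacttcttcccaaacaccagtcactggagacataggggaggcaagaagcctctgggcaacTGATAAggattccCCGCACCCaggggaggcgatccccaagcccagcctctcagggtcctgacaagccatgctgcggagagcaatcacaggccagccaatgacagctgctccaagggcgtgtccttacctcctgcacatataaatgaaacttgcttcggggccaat
Klf1 (chr19:40158652-40158901, minus strand): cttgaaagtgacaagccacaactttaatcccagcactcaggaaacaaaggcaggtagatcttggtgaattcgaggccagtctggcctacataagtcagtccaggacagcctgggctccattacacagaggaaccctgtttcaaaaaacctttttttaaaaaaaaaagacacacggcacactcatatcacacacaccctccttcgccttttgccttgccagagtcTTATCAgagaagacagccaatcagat
Rhag (chr9:27594391-27594640, minus strand): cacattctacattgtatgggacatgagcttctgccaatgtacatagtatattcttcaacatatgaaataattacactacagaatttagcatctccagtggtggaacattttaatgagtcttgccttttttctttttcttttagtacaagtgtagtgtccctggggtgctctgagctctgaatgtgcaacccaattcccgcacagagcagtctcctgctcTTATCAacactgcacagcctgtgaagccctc
The Hbb window held 1 CACCC-type match, 98 to 91 bases before the start, and no GATA match. Hba-a2 held 1 of each, the GATA match at 165 to 160 and the CACCC-type match at 152 to 145 bases before the start. Klf1 and Rhag each held a GATA match on the opposite strand, at 26 to 21 and at 31 to 26 bases before the start. Over 33469 promoter windows of this length, 27.0% held the GATA motif and 42.8% the CACCC-type motif, so either match is common. Epb42 also held 1 GATA match and Tfrc 2 overlapping CACCC-type matches. Slc4a1 and Ahsp were not matched in the promoter table, and the windows of Alas2 and Gata1, which start inside the annotated gene, are not described. The matches describe letters only and are no evidence of binding, and their bearing on the courses over the arrays was not tested.

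The hemoglobin genes were among the brightest of the array. Hbb, the adult beta-globin, took place 18 of all probe sets by mean signal. Its log2 signals were 14.77, 15.61 and 14.97 on the OSR arrays, 16.12, 15.12 and 15.25 in OR, 14.90, 15.75 and 14.73 in YSR and 15.34, 15.57 and 14.81 in YR. The highest value was that of OR array 1 and the lowest that of YSR array 3, and the 4 groups overlapped. Group means were 15.12 ± 0.44 in OSR, 15.49 ± 0.54 in OR, 15.12 ± 0.54 in YSR and 15.24 ± 0.39 in YR (SD, n = 3 each). Hbb thus spanned 1.39 on the log2 scale over all arrays, less than the median probe set (1.72). OR array 1 also had the highest maximum signal of all arrays, and YSR array 3 the lowest. Whether signals this close to the top of the range were compressed was not tested, for Hbb or for Hba-a2.

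The alpha-globin probe set read as Hba-a2 followed Hbb closely, with 14.74, 15.48 and 14.83 in OSR, 16.04, 15.16 and 15.19 in OR, 14.83, 15.62 and 14.61 in YSR and 15.24, 15.48 and 14.88 in YR. OR array 1 was again highest and YSR array 3 lowest. Over the 12 arrays both globins correlated at r = 0.989, and the 3 Hba-a2 probe sets among themselves at 0.988 to 0.995. A pair of probe sets annotated to the related beta-globin genes Hbbl1 and Hbb-bs correlated with Hbb at 0.792 and 0.927. Near-identical globin copies share probe sequence, so the members of each globin family are not independent readings.

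Ahsp encodes the chaperone that holds free alpha-globin in red cell precursors. It took another course than the globins, with log2 signals of 12.95, 10.71 and 11.43 in OSR, 12.81, 13.21 and 12.09 in OR, 10.34, 9.26 and 12.90 in YSR and 10.94, 12.41 and 11.22 in YR. OR array 2 was highest and YSR array 2 lowest, and these arrays lay 3.95 apart. YSR array 2 was the second highest of the 12 for Hbb.

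Alas2, the red-cell form of the first enzyme of heme synthesis, had 14.78, 14.23 and 14.36 in OSR, 14.15, 15.01 and 14.68 in OR, 13.86, 12.70 and 14.41 in YSR and 14.39, 14.95 and 14.24 in YR. Its means were 14.46 ± 0.29 in OSR, 14.61 ± 0.44 in OR, 13.66 ± 0.87 in YSR and 14.53 ± 0.37 in YR (SD, n = 3 each). The YSR mean was the low one, and it rested on YSR arrays 1 and 2, since YSR array 3 lay within the range of every other group.

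Of the membrane proteins, Slc4a1 (band 3, the anion exchanger of the red cell) had 13.13, 11.34 and 11.75 in OSR, 12.33, 13.25 and 12.25 in OR, 11.09, 9.58 and 12.86 in YSR and 12.04, 12.76 and 12.04 in YR. Epb42, which ties band 3 to the membrane skeleton, had 10.48, 8.82 and 9.57 in OSR, 9.88, 10.72 and 10.01 in OR, 8.65, 7.20 and 10.34 in YSR and 9.38, 10.22 and 9.35 in YR. Both were highest on OR array 2 and lowest on YSR array 2, and with r = 0.988 they were the closest pair outside the globins. The dimmer Slc4a1 probe set correlated with the brighter one at only 0.678. It was lowest on YSR array 1 (7.65) and OR array 1 (8.49), the arrays of high Gapdh ratio. Rhag, the Rh-associated glycoprotein that carries ammonia and gas across the membrane, was the dimmest member, with 9.18, 6.94 and 8.54 in OSR, 9.22, 9.57 and 8.32 in OR, 2.96, 4.86 and 9.23 in YSR and 6.86, 8.47 and 5.58 in YR. Its span of 6.61 was the widest of the 10 genes. YSR array 1, the array of the highest Gapdh ratio, gave its lowest value. Before log2, Rhag signals were 7.8 and 29.0 on YSR arrays 1 and 2 and 116.3 and 47.7 on YR arrays 1 and 3. On OSR array 2 the Rhag signal was 122.5. Each of these lay below the median signal of its array.

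Klf1, the activator of adult beta-globin and of many red-cell genes, had 10.77, 8.89 and 9.72 in OSR, 10.72, 11.04 and 10.25 in OR, 7.83, 6.07 and 10.62 in YSR and 8.33, 10.15 and 8.77 in YR. Each OR array lay above each YR array. No other member separated in this way, by its brightest probe set, in any of the 6 pairs of groups. The dimmer Slc4a1 probe set had each OSR array above each YR array (difference 1.35, adjusted p = 0.973 from limma). The share of all probe sets that did so for OSR and YR is not given here. Over all 31042 probe sets, 7.75% had every OR array above every YR array, so that 1 of 10 members is close to that share. Gata1, the factor needed for erythroid and megakaryocytic maturation, had 9.79, 8.08 and 8.22 in OSR, 9.11, 9.85 and 8.84 in OR, 7.90, 7.06 and 9.53 in YSR and 7.67, 9.04 and 8.12 in YR, and its groups overlapped. Klf1 means were 9.79 ± 0.94 in OSR, 10.67 ± 0.40 in OR, 8.17 ± 2.29 in YSR and 9.08 ± 0.95 in YR, while Gata1 means were 8.70 ± 0.95 in OSR, 9.27 ± 0.53 in OR, 8.16 ± 1.25 in YSR and 8.28 ± 0.70 in YR (SD over 3 arrays).

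Tfrc, the receptor through which precursors and other dividing cells take up transferrin-bound iron, had 13.08, 11.82 and 12.36 in OSR, 13.37, 13.42 and 12.35 in OR, 12.62, 10.80 and 13.09 in YSR and 10.86, 12.49 and 11.30 in YR. Here YR and not YSR had the lowest mean, 11.55 ± 0.84, against 12.42 ± 0.63 in OSR, 13.05 ± 0.60 in OR and 12.17 ± 1.21 in YSR (SD, n = 3 each). Its other probe set correlated with this one at 0.946 and had all 3 OR arrays above all 3 YR arrays.

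**Figure D1:**
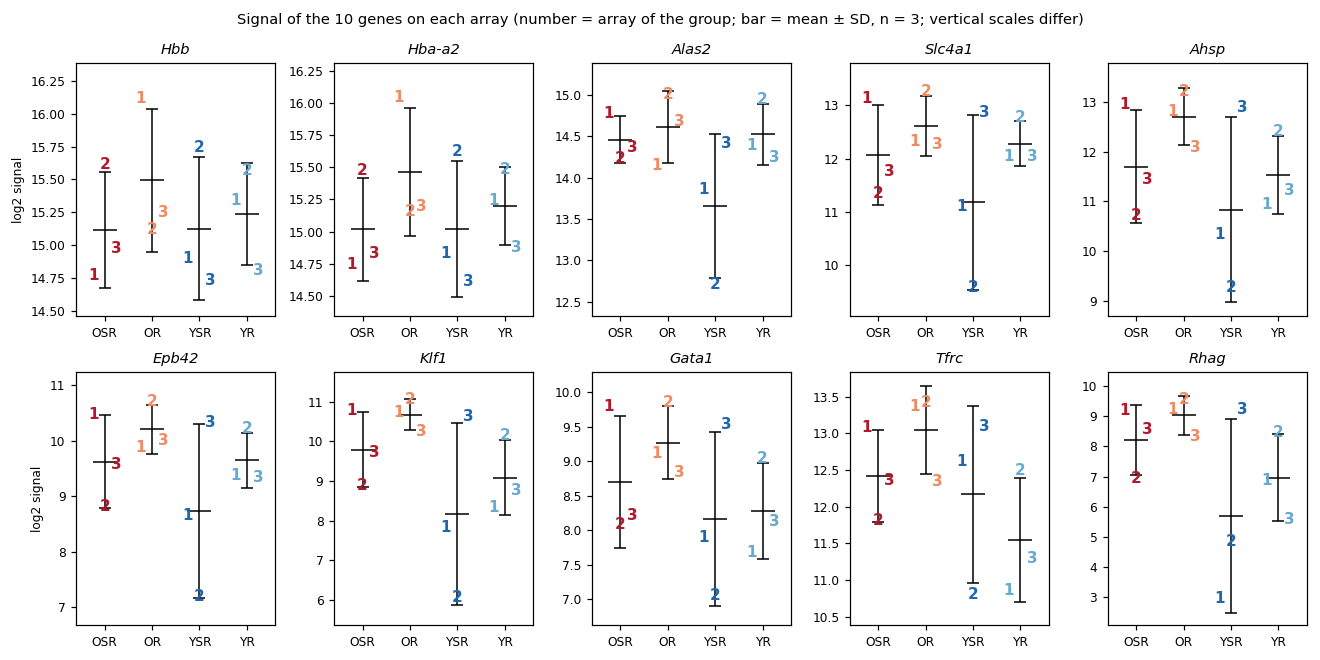
Log2 signal of each of the 10 genes (vertical axis, scale differs by panel) on the 3 arrays of each group, with digits for the arrays and bars for the mean ± SD (n = 3 arrays). Array 2 of YSR lies at the bottom for 7 of the 8 genes other than the globins and near the top for Hbb and Hba-a2.

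Most of the variation of these genes lay between arrays of 1 group. The groups took up 13.0% of the sum of squares for Hbb and 20.2% for Hba-a2, and for the other members 25.7% (Gata1) to 43.0% (Alas2), against a median of 26.6% over all probe sets. For each of the 10 genes the widest range was that of the YSR arrays. For Klf1 that range was 4.55 in YSR, against 1.88 in OSR, 0.79 in OR and 1.83 in YR. OR array 2 was the highest of 12 for all 8 genes other than the globins, and YSR array 2 was the lowest for 7 of these 8. OSR array 1 and YSR array 3 were each among the 3 highest arrays for 6 of them. In bulk tissue, fewer cells of a type and less RNA per cell cannot be told apart.

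**Figure D2:**
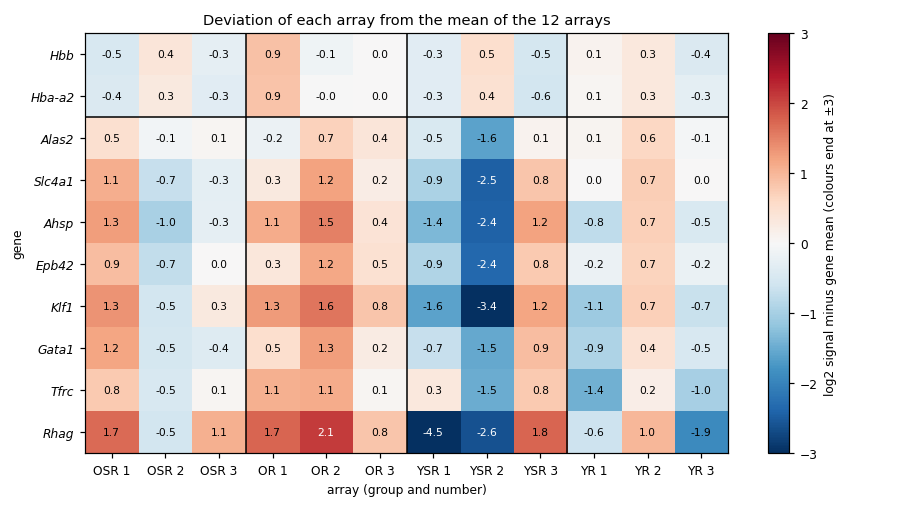
Each array's log2 signal minus the mean of that gene over the 12 arrays, with genes in rows and arrays in columns by group. The 8 lower rows share their highest array (OR 2) and nearly share their lowest (YSR 2, or YSR 1 for Rhag), while Hbb and Hba-a2 are highest on OR 1.

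The signals of the late gene Alas2 and the precursor genes moved together over the arrays. For Hbb no correlation with the precursor genes over the arrays passed adjustment, which does not show that there was none. Whether compression at the top of the signal range hid part of the course of Hbb was not tested. For Alas2 with Gata1, Pearson's r was 0.767 and Spearman's rho 0.720 over 12 arrays (permutation p = 0.00208 and 0.0102, two-sided, 0.00416 and 0.0279 after Benjamini-Hochberg adjustment over 4 gene pairs). For Alas2 with Klf1, r was 0.855 and rho 0.699 (permutation p = 0.00182 and 0.0139, adjusted 0.00416 and 0.0279). These values owe part of their size to the extreme arrays. Without YSR array 2 and OR array 2, the arrays farthest from the median of Alas2, r was 0.572 for Gata1 and 0.604 for Klf1 (permutation p = 0.0859 and 0.0639, 10 arrays). Without YSR array 2 alone r was 0.675 and 0.678, with an adjusted permutation p of 0.0542 for each. Over deviations from the group means, which removes age and fixation, r was 0.845 and 0.869 (exact permutation within groups, p = 0.0100 and 0.0162, adjusted 0.0324 for both).

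Hbb correlated with Gata1 at r = -0.259 and rho = -0.350 (permutation p = 0.415 and 0.267, adjusted 0.553 and 0.356), and with Klf1 at r = -0.182 and rho = -0.210 (permutation p = 0.557 and 0.513, which adjustment left as they were). Within groups, these became -0.501 and -0.496 (exact permutation p = 0.178 and 0.211, adjusted 0.211 for both). Without the arrays farthest from the Hbb median, OR array 1 and YSR array 2, r was -0.272 and -0.148 (permutation p = 0.444 and 0.671). Without YSR array 2 alone, Hbb with Klf1 turned to 0.107 and Hbb with Gata1 was -0.0823. Without OR array 1 alone, r was -0.467 with Klf1 and -0.480 with Gata1, with quantile normalization -0.420 and -0.521, and without both arrays of high Gapdh ratio -0.594 and -0.570 (adjusted permutation p = 0.0909 for both). Over the 4 group means, too few for a test, r was 0.654 and 0.837 for Alas2 and 0.788 and 0.743 for Hbb with Gata1 and Klf1, the OR mean being highest for all 4 genes.

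**Figure D3:**
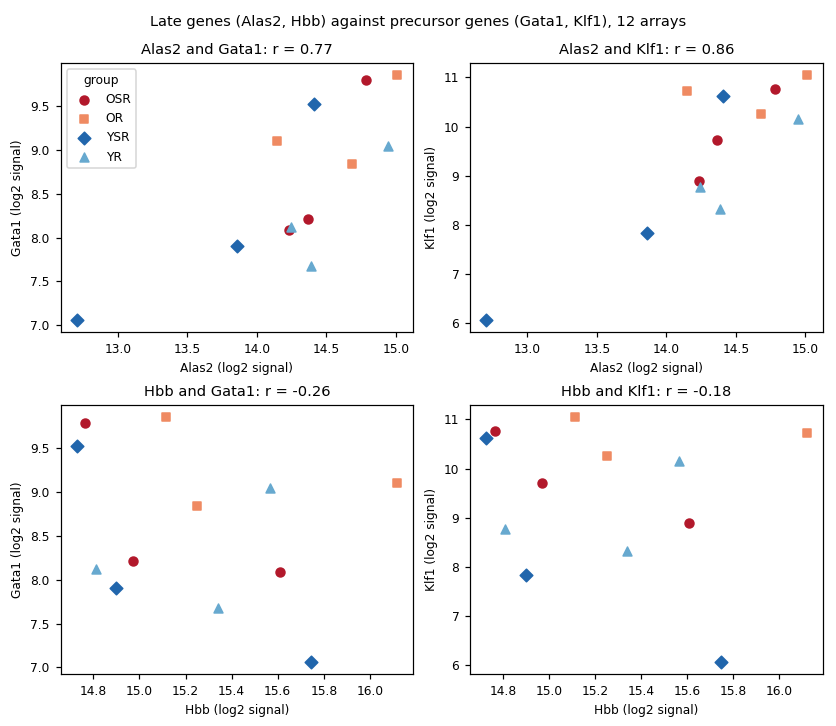
Log2 signal of Alas2 (top) and Hbb (bottom) on the horizontal axis against Gata1 (left) and Klf1 (right), with 1 point per array and the group by colour and shape. The upper panels slope upward with YSR array 2 at the lower left, and in the lower panels the same array lies at the lower right.

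Hbb and Hba-a2 stood apart from the other 8 genes across the 45 pairs of members, given as a description since all share the same arrays. The 28 pairs among the 8 other genes had a median r of 0.866 (0.558 for Alas2 with Tfrc to 0.988 for Slc4a1 with Epb42). The 16 pairs of a globin with one of these 8 had a median of -0.198, between -0.342 (Hbb with Slc4a1) and 0.048 (Hba-a2 with Rhag). Within groups the medians were 0.878 and -0.498. Globin probe sets outside the members did not all share the negative values. The pair annotated to Hbbl1 and Hbb-bs had r = 0.295 and 0.028 to Alas2 and 0.147 and 0.043 to Gata1. Hba-a3, another alpha-type globin gene with a probe set of its own, had r = 0.727 to Alas2, 0.400 to Gata1 and 0.354 to Hba-a2. The Hba-a3 signals were 14.88, 15.27 and 14.97 in OSR, 15.38, 15.14 and 15.14 in OR, 14.69, 14.19 and 14.68 in YSR and 15.18, 15.43 and 14.89 in YR.

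Among 9562 genes of at least median signal, those nearest to Alas2 over the 12 arrays were Bpgm (r = 0.986), Adipor1, Mkrn1, Marchf2, Glul, Ybx3, Car2 and Fech (0.960). Bpgm encodes bisphosphoglycerate mutase of red cells, Car2 a carbonic anhydrase and Fech the last enzyme of heme synthesis. Bpgm signals were 14.13, 13.49 and 13.61 in OSR, 13.77, 14.47 and 14.01 in OR, 13.36, 12.00 and 13.78 in YSR and 13.83, 14.36 and 13.62 in YR, again highest on OR array 2 and lowest on YSR array 2. Those nearest to Gata1 were Dyrk3 (0.976), Tmie, Ahsp (0.967), Hemgn, Mtfr1, Urod, Stradb and Kel (0.961). Kel carries the Kell blood group antigen and Urod is a heme synthesis enzyme. Of the members, Epb42 and Slc4a1 stood at places 23 and 24 for Alas2, Klf1 at 71, Gata1 at 163 and Tfrc at 741. For Gata1, Ahsp stood at place 3, Klf1 at 27 and Alas2 at 393. Hbb stood at place 7083 for Alas2 and 6376 for Gata1.

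With regard to age, every member had a higher mean in old than in young rats, and none of the differences passed adjustment. Averaged over fixation, old minus young was 2.30 for Rhag (standard error 0.88, 95% interval 0.39 to 4.21), 1.60 for Klf1 (0.62, 0.25 to 2.96) and 1.02 for Ahsp (0.56, -0.18 to 2.23) on the log2 scale. It was 0.87 for Tfrc, 0.76 for Gata1, 0.73 for Epb42, 0.61 for Slc4a1 and 0.45 for Alas2 (interval -0.12 to 1.01). The Rhag difference, here and in the comparisons below, rests in part on signals below the array median. The globins had the smallest differences, 0.12 for Hbb (-0.39 to 0.64) and 0.13 for Hba-a2 (-0.35 to 0.61). The median over the 10 genes was 0.74, against 0.02 over all probe sets, and it was 0.41 without YSR array 2. The members were not separate readings, since r had a median of 0.866 among the genes other than the globins and was 0.989 between the globins. This also limits the counts of members given below.

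From limma over all probe sets, 0 of 10 members passed at an adjusted p under 0.05 for age (smallest adjusted p = 0.483), where 0.00644% of all probe sets did. At an unadjusted p under 0.05, 3 of 10 were higher in old rats (Rhag, Klf1 and Tfrc, with adjusted p of 0.483, 0.490 and 0.578 from limma), where 4.7% of all probe sets were. By a plain analysis of variance, in which probe sets share no variance, 0 members reached an unadjusted p under 0.05. The count of 3 was 0 without OSR array 1, 1 without YSR array 2, YR array 1 or YR array 3, 8 without YSR array 3, and 0 without both arrays of high Gapdh ratio (YSR array 1 and OR array 1). Without OR array 1 the globins turned to lower in old rats, and 8 of 10 differences stayed positive.

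**Figure D4:**
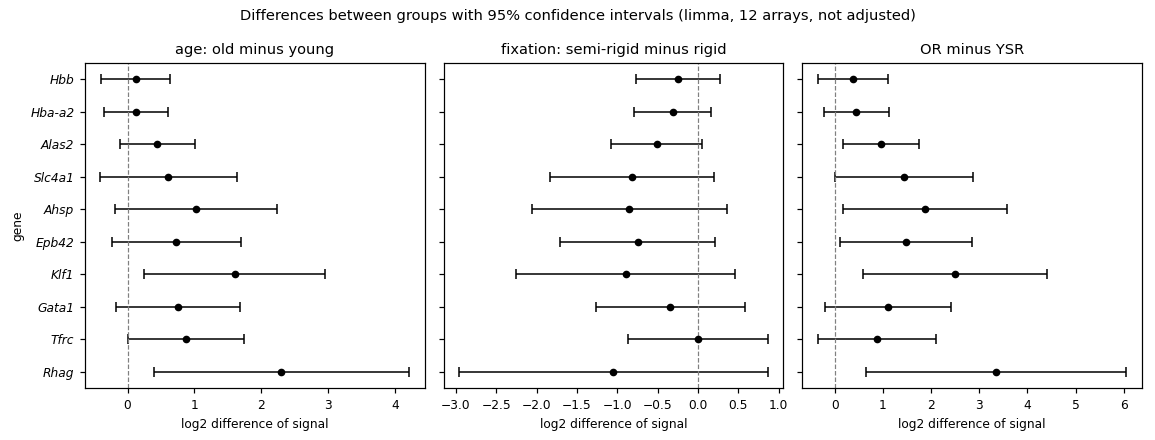
Log2 difference (point) and 95% confidence interval from limma (bar, not adjusted for multiple testing) of each gene for old minus young, semi-rigid minus rigid and OR minus YSR. All 10 points lie right of 0 for age and for OR minus YSR, and the intervals of Klf1, Tfrc and Rhag exclude 0 for age.

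Within semi-rigid fixation (OSR minus YSR), 8 of 10 members were positive with a median of 0.83, and Hbb (-0.01) and Hba-a2 (0.00) were negative by very little. That median was 0.30 without OSR array 1, 0.21 without YSR array 2 and 1.46 without YSR array 3. Alas2 had the only unadjusted p under 0.05, at 0.80 (adjusted p = 0.959 from limma), so that 1 of 10 members was higher where 2.03% of all probe sets were and 0.00322% passed adjustment. The count was 7 without YSR array 3 and 0 without OSR array 1 or 3, OR array 3, YSR array 1 or 2, or YR array 1 or 3. It was also 0 with quantile normalization, with dim probe sets left out, without the intensity trend of limma, with a fit on the arrays of this pair alone, by the plain analysis of variance and with the replicate number as a block. Within rigid fixation (OR minus YR), all 10 were positive with a median of 0.77. Tfrc differed by 1.50 (adjusted p = 0.511 from limma) and was the only member higher at an unadjusted p under 0.05, where 4.8% of probe sets were and 0.00322% passed adjustment. That count was 0 without OR array 1, OR array 2, YR array 1 or YR array 3, 2 without YSR array 2, 3 without YSR array 3, 5 with a fit on the arrays of this pair alone, and 0 by the plain analysis of variance or without both arrays of high Gapdh ratio. Klf1, whose OR and YR arrays did not overlap, differed by 1.59 (standard error 0.88, adjusted p = 0.664 from limma).

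With regard to fixation, all 10 members had negative differences between semi-rigid and rigid groups, with none past the threshold. Semi-rigid minus rigid was -1.05 for Rhag (95% interval -2.96 to 0.86), -0.90 for Klf1, -0.85 for Ahsp, -0.82 for Slc4a1, -0.75 for Epb42, -0.51 for Alas2 (-1.07 to 0.05) and -0.34 for Gata1. Both globins had small values, -0.31 for Hba-a2 and -0.25 for Hbb, and that of Tfrc rounded to 0.00. Over the alternatives the difference of Rhag lay between -1.94 and -0.32 and that of Klf1 between -1.51 and -0.37. The dimmer Slc4a1 probe set gave 0.11, so its direction differed from that of the brighter one. From limma 0 members passed adjustment (0% of all probe sets) and 0 were lower at an unadjusted p under 0.05 (2.53% of all probe sets), and the plain analysis of variance also gave 0. Without YSR array 3, 6 members were lower at an unadjusted p under 0.05, and without OSR array 1, OR array 1 or YSR array 2 it was 1.

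In young rats (YSR minus YR), Alas2 differed by -0.87 (adjusted p = 0.991 from limma), 1 of 10 members lower at an unadjusted p under 0.05 where 1.6% of all probe sets were and 0% passed adjustment. This count was 0 without YR array 2 or YSR array 2 and 6 without YSR array 3. With quantile normalization, without the intensity trend, with the arrays of the pair alone, by the plain analysis of variance and with the replicate number as a block it was 0 too. Tfrc had the only positive difference, 0.62. Without YSR array 2, 4 of 10 differences were positive, and 1 of 10 members was higher at an unadjusted p under 0.05. In old rats (OSR minus OR) all 10 members were negative with a median of -0.57 (-1.04 without OSR array 1 and -0.29 without OSR array 2), and 0 were lower at an unadjusted p under 0.05, against 2.83% of all probe sets with 0% past adjustment. The interaction, (OSR minus OR) minus (YSR minus YR), was positive for 5 members and negative for 5. It lay between -1.25 for Tfrc and 0.72 for Alas2 (adjusted p = 0.990 from limma for both), and 0 members were lower at an unadjusted p under 0.05 where 2.37% of all probe sets were and 0% passed adjustment.

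The widest separation was that of OR and YSR, which differ in age and in fixation. All 10 members were higher in OR, with a median difference of 1.27 against 0.01 over all probe sets. It was 0.70 without YSR array 2 and 2.03 without YSR array 3. Rhag differed by 3.35, Klf1 by 2.50, Ahsp by 1.87, Epb42 by 1.47 and Alas2 by 0.96, with adjusted p of 0.367 (Klf1) to 0.458 (Epb42) from limma. Thus 5 of 10 were higher at an unadjusted p under 0.05, where 5.1% of all probe sets were and 0% passed adjustment. Hbb differed by 0.37 and Hba-a2 by 0.44. The count was 1 without OR array 2 or YSR array 2, 2 without YSR array 1, 3 without OR array 3, 8 without YSR array 3, 3 without the intensity trend of limma and 1 without both arrays of high Gapdh ratio. By the plain analysis of variance it was 0. For OSR minus YR, 5 members were positive and 5 negative, and 0 were higher at an unadjusted p under 0.05, where 3.08% of all probe sets were and 0.00322% passed adjustment.

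Of the wider red-cell program, 93 further genes had a probe set. For age, 0 of them passed adjustment in limma, 18 were higher and 3 lower in old rats at an unadjusted p under 0.05, and the median difference was 0.32. Over all probe sets, 4.7% were higher and 1209 of 31042 lower at that threshold, which also holds for the lists below. Of the lists of these 93 genes, transcription factors held the largest share, with 8 of 15 higher and 1 lower (median 0.82). Among them Myb, a factor of hematopoietic progenitors, differed by 1.89 (adjusted p = 0.315 from limma), Tal1, a partner of GATA1, by 1.44, and Gfi1b, a repressor needed for erythroid and platelet precursors, by 1.38. Lmo2 was the lower one (-0.28), though it binds in the same complex as Tal1. In heme synthesis all 12 genes were positive and 3 were higher at an unadjusted p under 0.05, namely Uros (1.17), Cpox (0.95) and Alad (0.70), which encode enzymes between Alas2 and Fech in the pathway.

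Late genes and red cell enzymes had smaller differences, with 1 of 23 higher (Car1, a carbonic anhydrase, 2.16) and a median of 0.31. That count is close to the 4.7% of all probe sets. Of 18 membrane and skeleton genes, 4 were higher, among them the urea transporter Slc14a1 (2.34) and the skeleton protein Dmtn (1.37), and 2 were lower, among them the glucose transporter Slc2a1 (-0.57), which many cell types express. The erythropoietin receptor Epor was higher by 1.47 (adjusted p = 0.373 from limma), the only one of 12 genes of erythropoietin signalling, whose median was 0.02. Of 8 further genes of iron uptake 0 reached an unadjusted p under 0.05 in either direction. Of 5 further globins Hba-a3 was higher (0.29, adjusted p = 0.581 from limma). The differences between these lists were not tested.

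**Figure D5:**
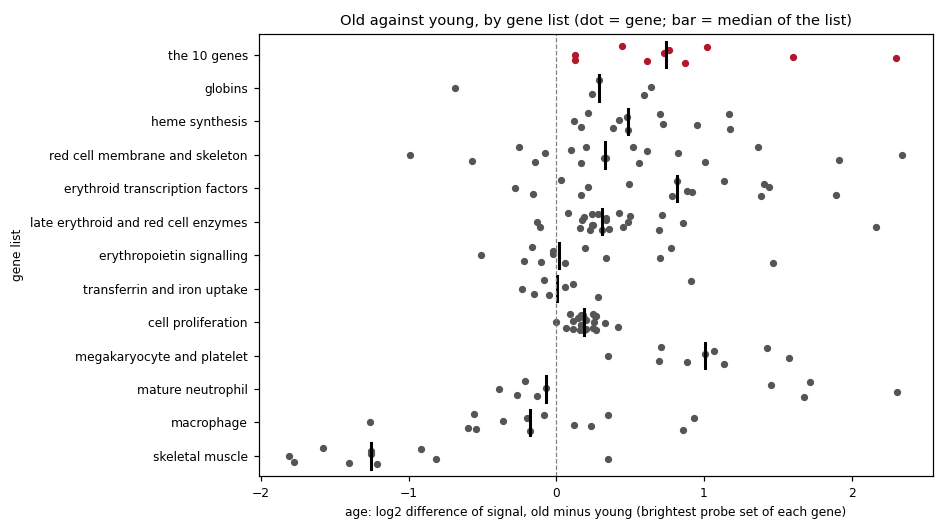
Log2 difference of signal, old minus young, for each gene (dot) of each list (one line per list), with a bar at the median. The 10 genes lie right of 0 around 0.74, transcription factors around 0.82 and platelet genes around 1.01, while 9 of the 10 skeletal muscle genes lie left of 0, with a median of -1.26.

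Platelet genes were high and low on some of the same arrays as the 8 red-cell genes, and muscle genes were lowest on some of the arrays where these were high. Of 14 listed megakaryocyte and platelet genes 9 had a probe set, and all 9 were higher in old rats on average, 3 of them at an unadjusted p under 0.05 (median 1.01). Their mean log2 signal was 11.18 on OSR array 1 and 11.00 on OR array 2, where the 8 red-cell genes were high, and 8.45 on YSR array 2, where they were low. It was also 10.92 on YR array 2. Their summed signal ranged over 28376 to 48047 in OSR, 35415 to 47998 in OR, 16550 to 35970 in YSR and 20662 to 49464 in YR. Skeletal muscle genes (10 of 10 with a probe set) had their lowest mean log2 signals on OR array 2 (7.54) and OSR array 1 (8.08), and on YSR array 2 they had 11.23. On YSR array 3, where the red-cell genes were also high, muscle genes had 10.81. On OR array 3, among the 3 highest for 0 of the 8 red-cell genes, they had 9.08. Their summed signal ranged over 11533 to 109437 in OSR, 17041 to 67497 in OR, 31668 to 66198 in YSR and 45821 to 71406 in YR. Of 9 mature neutrophil genes 4 were higher in old rats at an unadjusted p under 0.05 and the other 5 had negative differences (median -0.07), with summed signals of 24911 to 64769 in OSR, 41723 to 86266 in OR, 12582 to 19170 in YSR and 13070 to 50618 in YR. Of 13 macrophage genes 2 were higher and 4 lower, with sums of 53413 to 66487 in OSR, 39638 to 59130 in OR, 63731 to 80414 in YSR and 60168 to 68160 in YR. Of 23 proliferation genes 22 had positive differences for age and 0 reached an unadjusted p under 0.05 (median 0.18). Their summed signal was highest on OR array 2 (56939) and OSR array 1 (51253) and was 33955 on YSR array 2, with ranges of 33871 to 51253 in OSR, 40502 to 56939 in OR, 33441 to 47299 in YSR and 34268 to 44744 in YR. Beside each of these counts stand 4.7% of all probe sets higher in old rats and 1209 of 31042 lower. Of the remaining lists, 2 of 3 early granulocyte genes (Lcn2 and Camp), 1 of 14 genes of mast cells, eosinophils and basophils, 1 of 11 lymphocyte genes and 2 of 12 stromal genes were higher in old rats at an unadjusted p under 0.05, and 1 lymphocyte and 1 stromal gene were lower. The part of these cells and of the Gapdh ratio in the results for the red-cell genes was not tested.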

How the data were processed

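RNA was hybridized to 1-colour Affymetrix rat expression arrays. For each of 31099 probe sets the authors deposited a linear signal intensity, every array scaled to a trimmed mean of 500.2, and the submitters' processing notes name GCOS 1.2. The PLIER summaries of the methods were not used here. Values below 1 were raised to 1 before log2 was taken, and 57 control probe sets were left out. Of the 31042 probe sets tested, 20826 had 1 symbol. Comparisons were fitted with limma 3.58.1 (eBayes with its trend option, R 4.3.3) on all 12 arrays, with p-values adjusted by Benjamini-Hochberg over all probe sets, and the fit was tested on simulated data. A plain analysis of variance of the same log2 signals was an alternative, unpaired and 1-way for a pair of groups, as the methods have it for pairs, and 2-way for age, fixation and interaction. Each difference is the first group minus the second. Correlations used permutations (100000, or all 1296 orders within groups). The members and the 16 lists (257 genes, 207 with a probe set) were chosen with earlier results of these data known. Named list genes were the 3 of smallest unadjusted p for age per list, and the 8 genes nearest to Alas2 and to Gata1 were named. Lmo2 was singled out after seeing its value. The labels call the arrays biological replicates.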

Additional observations from a re-analysis of the deposited data

How the results depend on the processing

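In all 9 comparisons, 0 members passed adjustment under every alternative run: quantile normalization, a pseudocount of 16, dim probe sets left out, limma without its intensity trend, a fit on the arrays of a pair alone, a plain analysis of variance, the replicate block, each array left out in turn, YSR array 1 and OR array 1 left out together, and the second brightest probe set. Of 1860 member differences under these alternatives 79 turned sign, among them Klf1 in the interaction (7) and Tfrc for fixation (7). Many of the 1860 could not turn sign. A difference is unchanged by leaving out dim probe sets, the intensity trend or an array outside the pair. The plain analysis of variance, the replicate block and the fit on the arrays of a pair also leave it unchanged. For genes with a single probe set, the second brightest was the same one. Leaving out 1 array at a time, r of Alas2 with Gata1 ranged over 0.675 to 0.826 and with Klf1 over 0.678 to 0.916, and both lost their adjusted call without YSR array 2. Arrays of the same replicate number were not paired, since the deviations of same-numbered arrays had a median r of 0.019 over 18 pairs (-0.412 to 0.405). With the replicate block the members called stayed at 0 in each comparison. The members at an unadjusted p under 0.05 were then 2 for age (Tfrc was lost), and 0 for OSR minus YSR and for YSR minus YR (Alas2 was lost). Klf1 for age had a difference of 1.60 with an unadjusted limma p of 0.0340. Over all probe sets, calls for age were 2, against 1 with the replicate block, 4 without the intensity trend, 0 by the plain analysis of variance and 80 without OSR array 3. For OSR minus YR they were 1, against 32 without both arrays of high Gapdh ratio, and for YSR minus YR 0, against 27. For OR minus YR they were 1, against 14 with the arrays of the pair alone, and for OR minus YSR 0, against 13 without OSR array 3.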
